A study of Mus musculus with 12 samples.

Results

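Genes that take up, carry, remove and sense retinoic acid were compared between keratinocyte fractions sorted from mouse skin for the surface glycoprotein CD34, an antigen of the hair follicle bulge. The 9 genes were Stra6, Dhrs3, Crabp1, Crabp2, Cyp26b1, Rara, Rarb, Rarg and Rxra, and every probe set that the platform annotation ties to 1 of them alone was included. These were 12 of the 45037 probe sets tested, or 9 of 18193 genes. The CD34+ group held 6 arrays and the CD34- group 6 arrays. Both came from skin of mice labelled C57 DBA, with age and sex not given in the labels used here, and were sorted by magnetic beads (MACS) from pools of at least 6 mice in each of 3 isolations. Each RNA was placed on 2 Affymetrix arrays, so 6 arrays stand for 3 RNA samples per fraction, and the titles leave unnamed the pairs that came from 1 RNA. The labels name no transgene or treatment, and the CD34- group is the remainder of the sort, so it mixes every cell that did not bind CD34 beads.

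Retinol enters cells with the help of the membrane receptor STRA6, is oxidised to retinaldehyde and then to retinoic acid, and can be held back at the retinaldehyde step by reductases such as DHRS3. Inside the cell retinoic acid is bound by the carriers CRABP1 and CRABP2 and is hydroxylated for removal by the CYP26 enzymes. It acts through retinoic acid receptors (RARs), which pair with retinoid X receptors (RXRs) on direct repeats of AGGTCA-like motifs in DNA. In skin RARG and RXRA are known as the main receptors of keratinocytes, and retinoids are known to alter epidermal differentiation and hair growth.

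In CD34+ cells the clearance enzyme Cyp26b1 was higher, and the carrier Crabp2 and the receptors Rarg and Rxra were lower. Cyp26b1 was 2.71-fold higher (95% interval 1.85 to 3.97). Rarg was 1.97-fold lower (1.57 to 2.48), Crabp2 1.91-fold lower (1.30 to 2.79) and Rxra 1.64-fold lower (1.23 to 2.20), each by its brightest probe set. Cyp26b1 and this probe set of Rarg passed in all 21 alternative fits. Crabp2 and Rxra did not pass when CD34+ arrays 1, 3 and 5 were left out (limma adjusted p = 0.113 and 0.195). Crabp2 also did not pass after a further quantile normalization of the arrays (adjusted p = 0.0931) or when arrays 1-2, 3-4 and 5-6 were averaged (adjusted p = 0.0570). Dimmer probe sets of Rarg and Rxra did not pass. The other 5 genes did not pass the test. All levels are log2 RMA values, in which a step of 1 is a doubling of signal, and all differences are CD34+ minus CD34-. A probe set passed where limma's Benjamini-Hochberg adjusted p over the 45037 probe sets was under 0.05. Of the 12 probe sets 1 was higher and 3 were lower, beside 7.64% higher and 13.9% lower among all probe sets, 21.5% in either direction. Of all calls 78.8% were lower after centring each array on its median, 52.8% on leaving out CD34+ arrays 1, 3 and 5, and 64.6% as deposited. The median difference was -0.10 over the 12 and 0.064 over all probe sets. A count over 12 probe sets is too small to be set apart from these shares, and nothing is read from it.

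RefSeq promoter windows (250 bases before to 50 after a start site, build GRCm38.p6) were given for 8 of the 9 genes, 18 windows in all. The bases before the start site are shown for the 3 changed receptor and enzyme genes with a window, to show what the AGGTCA motif looks like there. Capitals mark a match to AGGTCA on either strand (TGACCT is the same motif read on the other strand). For Rarg and Rxra, which have 2 windows each, the one with a match is shown. The Cyp26b1 stretch lies partly inside the annotated gene, which ends at 84593908. All of the Rxra stretch lies inside its gene (27676445 to 27763319), so neither is wholly upstream of the gene.
Cyp26b1, chr6:84593811-84594060, minus strand: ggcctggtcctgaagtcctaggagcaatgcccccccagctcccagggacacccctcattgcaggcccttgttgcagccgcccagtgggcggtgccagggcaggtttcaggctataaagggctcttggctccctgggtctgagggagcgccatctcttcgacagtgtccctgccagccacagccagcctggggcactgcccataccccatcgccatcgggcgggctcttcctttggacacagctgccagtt
Rarg, chr15:102257523-102257772, minus strand: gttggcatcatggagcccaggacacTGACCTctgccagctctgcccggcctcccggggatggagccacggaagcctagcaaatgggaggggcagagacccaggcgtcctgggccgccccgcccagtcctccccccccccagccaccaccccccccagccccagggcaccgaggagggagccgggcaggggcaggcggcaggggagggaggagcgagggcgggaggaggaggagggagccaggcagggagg
Rxra, chr2:27709042-27709291, plus strand: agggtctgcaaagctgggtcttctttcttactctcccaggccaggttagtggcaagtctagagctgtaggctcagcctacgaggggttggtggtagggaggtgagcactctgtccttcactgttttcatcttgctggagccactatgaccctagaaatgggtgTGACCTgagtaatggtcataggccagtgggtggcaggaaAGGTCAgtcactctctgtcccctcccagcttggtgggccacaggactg
The Cyp26b1 stretch had 0 matches, that of Rarg 1 and that of Rxra 2. In all, 3 of the 18 windows held at least 1 AGGTCA (a window of Rara with a match just after its start site is the third), and 16.3% of the 32851 windows of all genes did. Direct repeats with 1, 2 or 5 bases between (AGGTCANAGGTCA, AGGTCANNAGGTCA and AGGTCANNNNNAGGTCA) were in 0 of the 18 windows, and in 13, 3 and 3 of all windows. The repeats contain the single motif, so these counts overlap. Exact copies alone were searched and are rare in all windows, so 0 of 18 does not tell whether looser AGGTCA-like repeats are there. The G and C content before the start site was 64.8% for Cyp26b1, 74.4% for Rarg and 55.2% for the Rxra window shown, with a median of 52.4% and an interquartile range of 45.2 to 61.2% over all windows. The arrays do not tell which start site a transcript used.

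Some features of the arrays touch every value that follows. The 3 probe sets of the Trpn control read 2.31 to 2.95 and mark the low end of the scale. For Actb the signal near the transcript's 3' end exceeded that near its 5' end, a sign of RNA quality, by 3.95 to 5.65 in CD34+ and 1.82 to 3.24 in CD34- arrays. For Gapdh the fractions lay closer, at 3.66 to 4.63 in CD34+ and 3.10 to 3.57 in CD34- arrays. Log2 values were less spread out in CD34+ arrays 1, 3 and 5 (SD 1.92 to 2.07 over all probe sets) than in the other 9 (2.19 to 2.32). These are called the narrow-spread arrays, and results are also given without them. Of 8 keratinocyte markers 0 rose and 4 fell, and Krt5, a basal layer keratin, read 12.17 in CD34+ and 13.20 in CD34- arrays. Of 10 bulge stem cell markers 9 rose and 0 fell. Of 7 measured T cell markers 0 rose and 7 fell, of 12 dermal fibroblast markers 6 rose and 1 fell, and of 8 Langerhans and myeloid markers 0 rose and 4 fell. The fibroblast marker that fell was Thy1 (-1.90), which is also counted among the T cell markers by the same probe set. Of 9 dermal papilla markers 2 rose and 1 fell, of 7 melanocyte markers 1 rose and 1 fell, and of 7 endothelial markers 0 rose and 0 fell. In sorted cells measured in bulk, fewer cells of a type and less RNA per cell cannot be told apart.

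**Figure D1:**
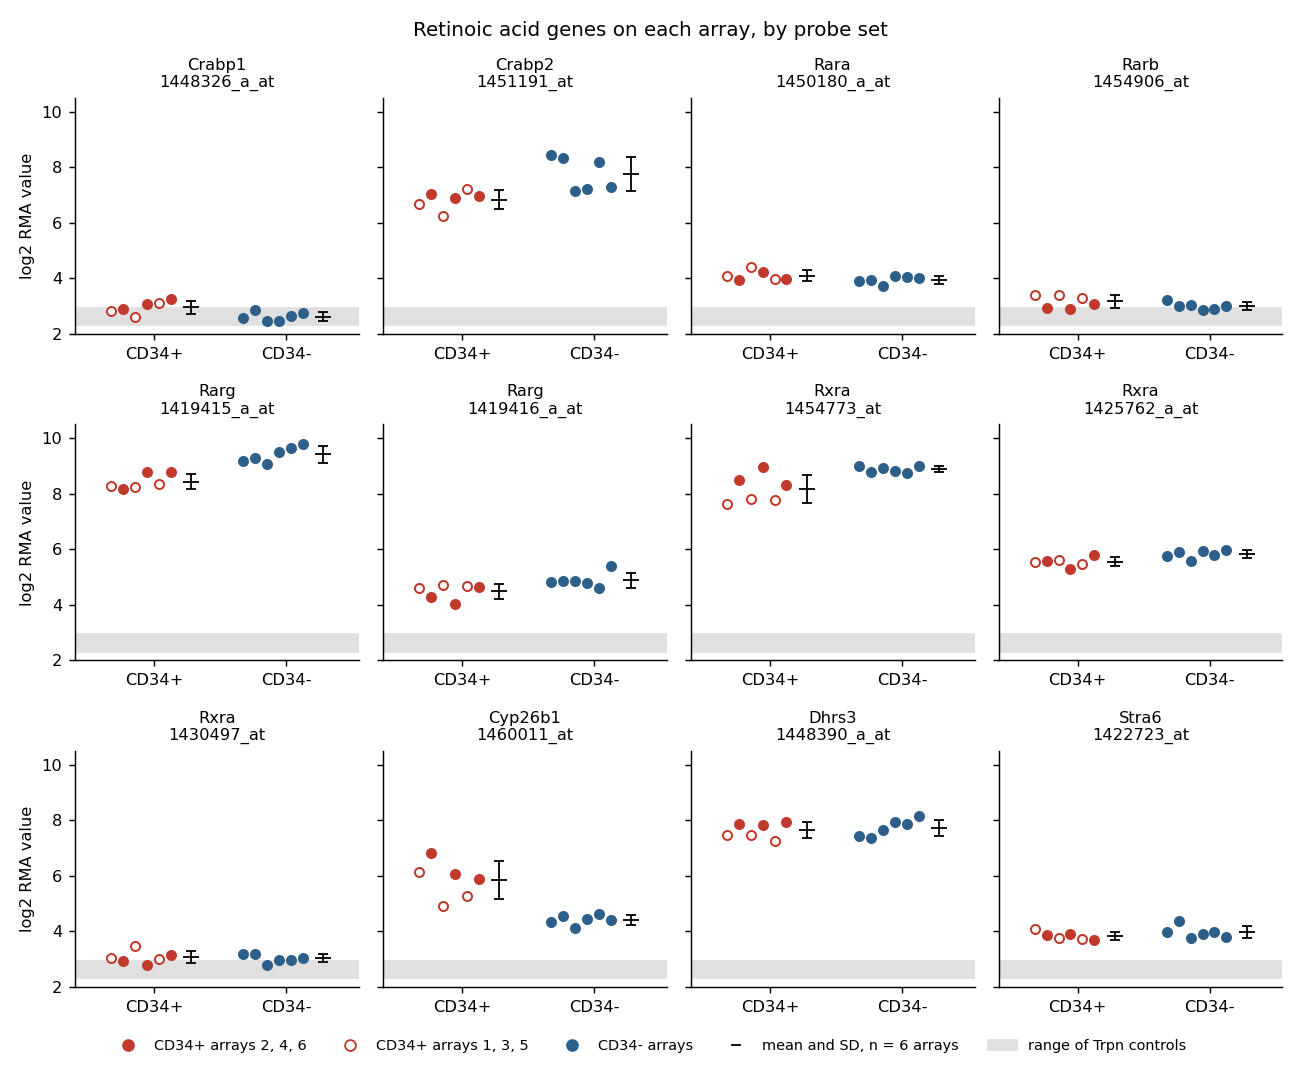
Log2 RMA values (vertical axis) of the 12 probe sets on each array, CD34+ at left and CD34- at right in every panel, with the mean and SD over 6 arrays beside them and the range of the Trpn controls as a grey band. Open circles are CD34+ arrays 1, 3 and 5. The fractions do not overlap for Cyp26b1 and for Rarg 1419415_a_at, and Crabp1, Rarb and Rxra 1430497_at lie at or near the grey band in both fractions.

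Of the genes for uptake and reduction, neither passed. Stra6, the membrane receptor for retinol bound to its serum carrier, read 3.70 at the lowest, 3.82 at the median and 4.09 at the highest in CD34+ arrays, against 3.76, 3.93 and 4.37 in CD34- arrays. The fractions overlapped, and both lay above the Trpn controls. The difference was -0.12 (95% interval -0.36 to 0.12, limma adjusted p = 0.458). Dhrs3, a retinaldehyde reductase whose expression is known to respond to retinoic acid in several tissues, read 7.27, 7.66 and 7.95 in CD34+ arrays, against 7.38, 7.75 and 8.14 in CD34- arrays. Its arrays covered nearly the same range in both fractions. The difference was -0.088 (95% interval -0.42 to 0.25, limma adjusted p = 0.700). That interval excludes a 2-fold change in either direction in this fit, which takes arrays as separate samples. The sign of Dhrs3 turned without the narrow-spread arrays (0.16, adjusted p = 0.596) and after a further quantile normalization of the arrays (0.21, adjusted p = 0.215).

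The cellular carriers differed in level and in outcome. Crabp2, the carrier that passes retinoic acid to RARs in the nucleus, read 6.25 at the lowest, 6.93 at the median and 7.21 at the highest in CD34+ arrays, against 7.15, 7.75 and 8.43 in CD34- arrays. In CD34+ cells 5 of 6 arrays lay below the lowest CD34- array, and CD34+ array 5 (7.21) lay just above CD34- array 3 (7.15). The CD34- arrays fell apart within their own fraction, with arrays 1, 2 and 5 at 8.43, 8.35 and 8.21 and arrays 3, 4 and 6 at 7.15, 7.22 and 7.29. Crabp2 averaged 6.84 ± 0.34 in CD34+ and 7.77 ± 0.61 in CD34- cells (SD over 6 arrays each). The difference was -0.93 (SE 0.25, limma adjusted p = 0.0192), and 4.83% of all probe sets were lower by as much or more. Crabp2 did not pass without the narrow-spread arrays (-0.81, adjusted p = 0.113), after a further quantile normalization (-0.66, adjusted p = 0.0931) or when neighbouring arrays (1-2, 3-4 and 5-6) were averaged before the fit (adjusted p = 0.0570).

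Crabp1, the carrier mostly linked to holding and turnover of retinoic acid in the cytosol, lay at the low end of the scale. It read 2.61, 2.99 and 3.26 in CD34+ arrays (lowest, median and highest), against 2.46, 2.61 and 2.86 in CD34- arrays. Of its 12 readings 9 did not exceed the highest Trpn control, including all 6 from CD34- cells. The difference was 0.34 (SE 0.12) and just missed the threshold (limma adjusted p = 0.0543). It passed in 5 of 20 alternatives, among them without the narrow-spread arrays (0.45, adjusted p = 0.0248), on dropping just CD34+ array 3 (0.41, adjusted p = 0.0141) and on dropping just CD34- array 2 (0.39, adjusted p = 0.0407). In the other 15 it did not pass. Among those were median centring (0.24, adjusted p = 0.235), a further quantile normalization (0.26, adjusted p = 0.170) and averaging of neighbouring arrays (adjusted p = 0.0938). At such levels a fold is compressed, so no size is drawn from the difference.

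Cyp26b1, the P450 enzyme that hydroxylates retinoic acid, showed the widest difference of the 9 genes. It read 4.90 at the lowest, 5.99 at the median and 6.82 at the highest in CD34+ arrays, against 4.11, 4.43 and 4.62 in CD34- arrays. All 6 CD34+ arrays lay above all 6 CD34- arrays, with a gap of 0.29 between the nearest. Such separation was found in 2 of the 12 probe sets and in 10.9% of all probe sets. CD34+ arrays 3 (4.90) and 5 (5.26) were the lowest of their fraction and CD34+ array 2 (6.82) the highest. Cyp26b1 averaged 5.85 ± 0.68 in CD34+ and 4.42 ± 0.18 in CD34- cells (SD over 6 arrays each). The difference was 1.44 (SE 0.26, limma adjusted p = 0.00147), and 0.875% of all probe sets were higher by as much or more. It was 1.85 without the narrow-spread arrays (adjusted p = 0.000161), and 1.24 to 1.63 on leaving out any single array. Averaging neighbouring arrays before the fit, which assumes a pairing that the labels do not state, gave an adjusted p of 0.00801.

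Markers of other cells were read beside Cyp26b1. The summed linear signal of the 12 dermal fibroblast markers was 895 to 4794 in CD34+ and 654 to 1807 in CD34- arrays, and none of the 12 averaged within the Trpn range. Without the narrow-spread arrays that sum was 895 to 1314 in CD34+ cells, but 5 of the 12 markers were still higher by limma, with Col1a2 at 3.24 (adjusted p = 9.61e-05), Dcn at 1.85, Dpt at 1.69, Fbln1 at 1.44 and Col1a1 at 1.32. Vim, which did not pass, was the brightest of the 12 (9.32 in CD34+ and 8.64 in CD34- arrays) and stood at -1.26 without those arrays, so the sum and the count ran apart. The sum of the 10 bulge markers was 2532 to 8386 in CD34+ and 467 to 598 in CD34- arrays. The sum of the 9 dermal papilla markers was 161 to 241 in CD34+ and 297 to 441 in CD34- arrays, with Corin, Prom1 and Tbx18 averaging within the Trpn range. That sum ran against most of its list. Rspo3, the brightest member, was lower (5.94 in CD34+ and 7.95 in CD34- arrays), while Hhip (1.03) and Prdm1 (0.65) were higher and the median difference of the 9 was 0.31. The 3'-to-5' excess of Actb was also larger in every CD34+ array (at least 3.95) than in any CD34- array (at most 3.24). That of Gapdh was larger by less (at least 3.66 against at most 3.57). The part of bulge cells, fibroblasts, dermal papilla cells and RNA quality in the difference of Cyp26b1 was not tested.

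The retinoic acid receptors were read by 4 probe sets. Rarg was lower in CD34+ cells. Its brighter probe set, 1419415_a_at, read 8.18 at the lowest, 8.32 at the median and 8.80 at the highest in CD34+ arrays, against 9.06, 9.40 and 9.80 in CD34- arrays. The fractions did not overlap and were 0.26 apart at the nearest. The means were 8.44 ± 0.28 in CD34+ and 9.42 ± 0.29 in CD34- cells (SD over 6 arrays each). The difference was -0.98 (SE 0.15, limma adjusted p = 0.000616), and 4.25% of all probe sets were lower by as much or more. It was -0.83 without the narrow-spread arrays (adjusted p = 0.0141), and -1.08 to -0.69 over the 21 alternatives tried, in all of which it passed.

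The other probe set of Rarg, 1419416_a_at, read lower on the scale. It read 4.04, 4.63 and 4.70 in CD34+ arrays (lowest, median and highest), against 4.61, 4.83 and 5.40 in CD34- arrays. CD34- array 6 (5.40) stood apart from the next array of its fraction (4.85), and 3 of 6 CD34+ arrays lay below the CD34- range. The difference was -0.39 (95% interval -0.71 to -0.074, limma adjusted p = 0.0744). It passed in 4 of 20 alternatives. Among them were averaging of neighbouring arrays (adjusted p = 0.0409), a further quantile normalization (-0.43, adjusted p = 0.0325) and median centring (-0.49, adjusted p = 0.0213). In the other 16 it did not pass. Those included leaving out the narrow-spread arrays (-0.56, adjusted p = 0.0575) and leaving out any single array (adjusted p = 0.0648 to 0.144). Whether the probe sets of Rarg differ in their change was not tested.

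Rara, the receptor found in most tissues, read 3.94, 4.04 and 4.42 in CD34+ arrays (lowest, median and highest), against 3.71, 3.98 and 4.10 in CD34- arrays. The fractions overlapped. The difference was 0.15 (95% interval -0.075 to 0.37, limma adjusted p = 0.312). Rarb, a receptor gene that retinoic acid itself is known to induce through a repeat in its promoter, read 2.91, 3.18 and 3.41 in CD34+ arrays, against 2.85, 3.01 and 3.22 in CD34- arrays. Its readings lay at or just above the Trpn controls in both fractions, with 3 of 12 not above the highest of them. The difference was 0.17 (95% interval -0.070 to 0.40, limma adjusted p = 0.285) and turned to -0.027 without the narrow-spread arrays (adjusted p = 0.906).

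Rxra, the partner of RARs, vitamin D receptor and PPARs, was read by 3 probe sets, and 1 of them passed. The brightest, 1454773_at, read 7.65 at the lowest, 8.05 at the median and 8.97 at the highest in CD34+ arrays, against 8.75, 8.87 and 9.02 in CD34- arrays. The CD34- arrays lay close together and the CD34+ arrays spread widely. CD34+ arrays 1, 3 and 5 were the lowest (7.65, 7.80 and 7.79), and CD34+ array 4 (8.97) lay inside the CD34- range. The means were 8.17 ± 0.51 in CD34+ and 8.88 ± 0.11 in CD34- cells (SD over 6 arrays each). The difference was -0.72 (SE 0.20, limma adjusted p = 0.0190), and 8.58% of all probe sets were lower by as much or more. Without these narrow-spread arrays it was -0.29 and did not pass (adjusted p = 0.195). After a further quantile normalization it shrank to -0.42 and passed (adjusted p = 0.0404).

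The probe set 1425762_a_at of Rxra read 5.30, 5.57 and 5.80 in CD34+ arrays (lowest, median and highest), against 5.60, 5.86 and 5.96 in CD34- arrays. In it 4 of 6 CD34+ arrays lay below the CD34- range. The difference was -0.28 (95% interval -0.49 to -0.067, limma adjusted p = 0.0580). It passed in 4 of 20 alternatives, among them median centring (-0.38, adjusted p = 0.0135), without CD34+ array 6 (-0.33, adjusted p = 0.0311) and without CD34- array 3 (-0.32, adjusted p = 0.0362). It did not pass after a further quantile normalization (-0.16, adjusted p = 0.311), with neighbouring arrays averaged (adjusted p = 0.0622) or without the narrow-spread arrays (-0.27, adjusted p = 0.184). The probe set 1430497_at read 2.80 to 3.47 in CD34+ and 2.79 to 3.20 in CD34- arrays, at the low end of the scale, with a difference of 0.037 (95% interval -0.21 to 0.28, limma adjusted p = 0.833). Whether the probe sets of Rxra differ in their change was not tested.

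Beside the falls of Rarg, Rxra and Crabp2, the summed linear signal of the 7 measured T cell markers was 337 to 874 in CD34+ and 1632 to 3118 in CD34- arrays, and that of the 8 Langerhans and myeloid markers 586 to 801 against 874 to 1765. None of these 15 markers averaged within the Trpn range. The sum of the 8 keratinocyte markers was 27041 to 40935 in CD34+ and 36989 to 53456 in CD34- arrays. The part of these cells and of RNA quality in the falls was not tested.

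**Figure D2:**
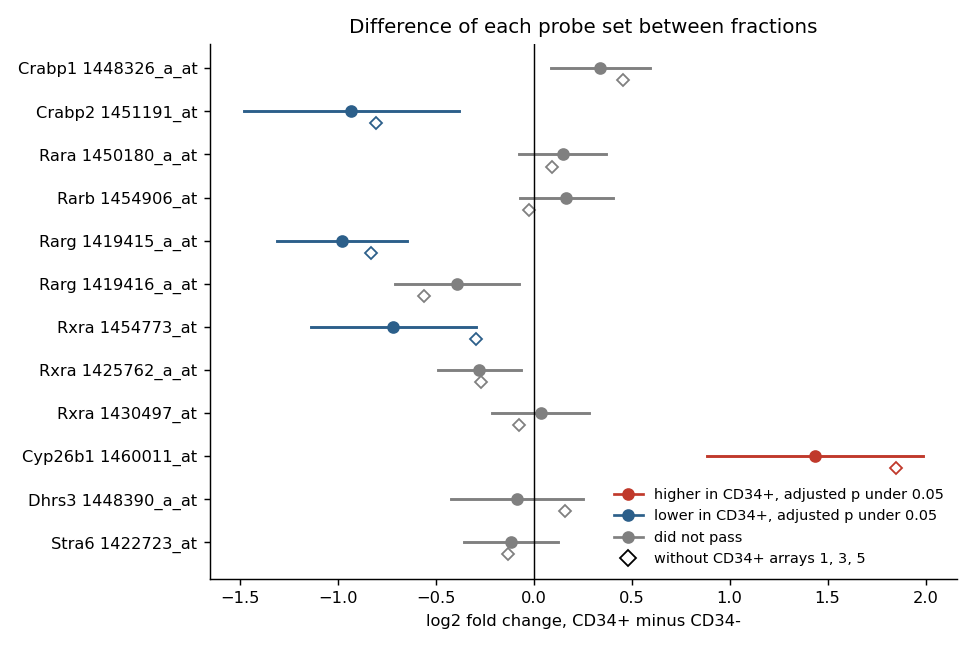
Difference of each of the 12 probe sets between fractions (horizontal axis, log2 fold change, CD34+ minus CD34-), with limma's 95% interval as a bar and the value without the narrow-spread arrays as an open diamond. Cyp26b1 lies furthest to the right at 1.44 and Rarg 1419415_a_at furthest to the left at -0.98, and the diamond of Rxra 1454773_at lies at -0.29.

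**Figure D3:**
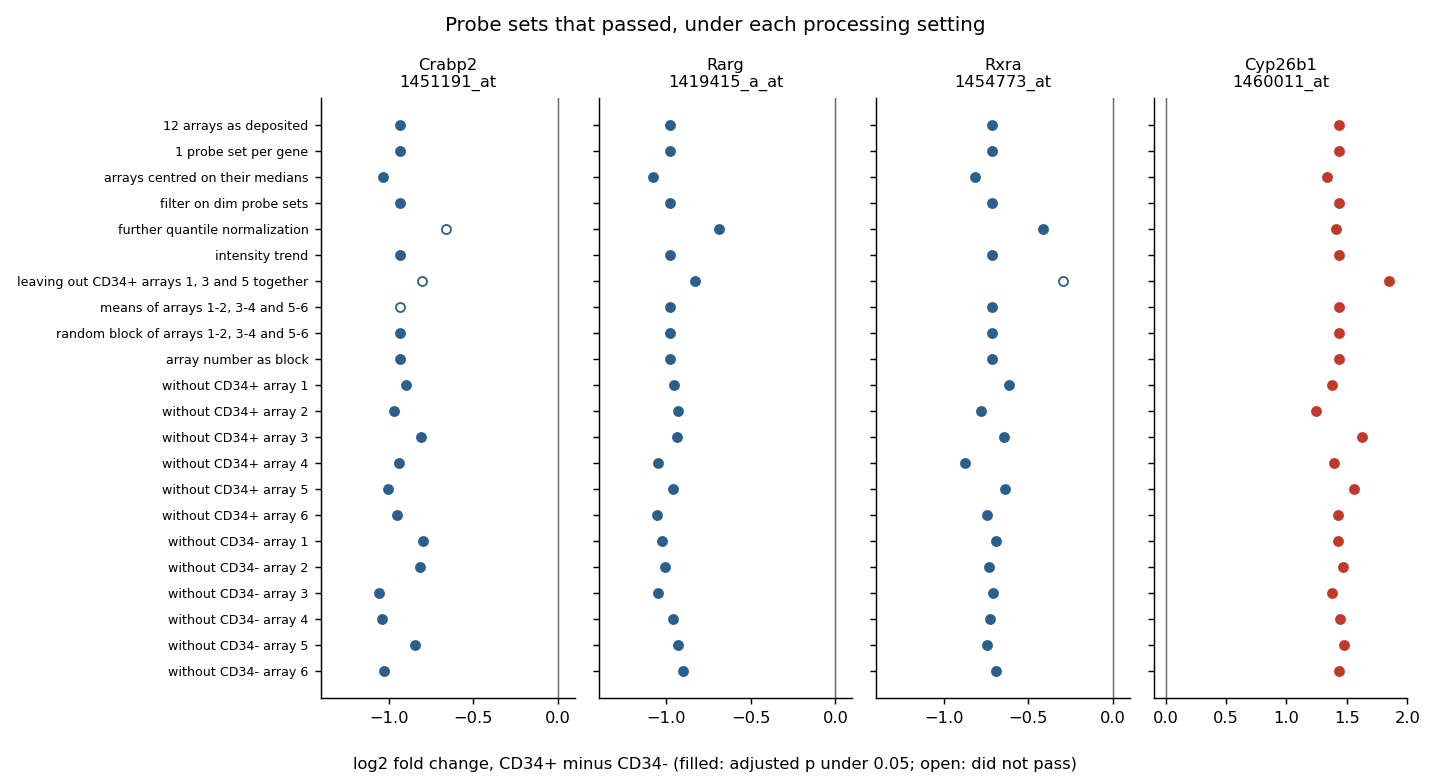
Log2 fold change (horizontal axis, CD34+ minus CD34-) of the 4 probe sets that passed, under each processing setting (rows), filled where the adjusted p was under 0.05 and open where it was not. Cyp26b1 and Rarg are filled in every row, Crabp2 is open in 3 rows, and Rxra is open in the row that leaves out the narrow-spread arrays.

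Other genes of the pathway were read from 5 lists with 64 members, of which 56 had a probe set of their own. By the brightest probe set of each gene, 2 were higher, 7 were lower and 47 did not pass, with a median difference of -0.030. Among all 18193 genes 7.73% were higher and 17.5% lower, 25.2% in either direction, with a median of 0.040. Without the narrow-spread arrays 3 of the 56 were higher (Vdr, Kat2b and Meis1) and 2 lower (Rdh12 and Meis2), and of these Rdh12 alone was among the 9 that passed on all arrays.

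Among 22 retinol and retinaldehyde oxidoreductases 3 fell and 0 rose, with a median of -0.058. Rdh12, a reductase of retinaldehyde, read 6.48 to 7.61 in CD34+ arrays, against 7.78 to 8.45 in CD34- arrays, and the fractions did not overlap. Its difference was -1.04 (SE 0.20, limma adjusted p = 0.00213), it passed without the narrow-spread arrays (-0.72, adjusted p = 0.0173), and its other probe set was lower as well (-1.01, adjusted p = 0.00362). Sdr16c6, a short-chain dehydrogenase, fell by 0.96 (adjusted p = 0.0120), and Adh1, an alcohol dehydrogenase that can oxidise retinol, fell by 0.84 (adjusted p = 0.0180). Neither passed without the narrow-spread arrays (adjusted p = 0.104 and 0.138). The retinaldehyde dehydrogenases, which make retinoic acid, did not pass. Aldh1a1 was at -0.66 (4.26 in CD34+ and 4.91 in CD34- arrays, adjusted p = 0.158), Aldh1a2 at 0.34 (3.50 and 3.16, adjusted p = 0.345) and Aldh1a3 at 0.17 (3.58 and 3.41, adjusted p = 0.320).

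Of 8 genes of retinol uptake, binding and storage, 1 rose and 1 fell, with a median of 0.15. Dgat2, an acyltransferase of triglyceride synthesis, fell by 0.64 (limma adjusted p = 0.0124). Stra6l, a relative of Stra6 that takes up retinol in mouse liver and gut, rose by 0.38 (adjusted p = 0.0461) from readings near the Trpn controls (3.32 in CD34+ and 2.93 in CD34- arrays). Neither passed without the narrow-spread arrays (adjusted p = 0.0964 and 0.356).

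The remaining carriers and clearance enzymes were Cyp26a1 and Fabp5, and neither passed by its brightest probe set. Cyp26a1, the close relative of Cyp26b1, averaged 5.36 ± 0.81 in CD34+ and 4.76 ± 0.34 in CD34- cells (SD over 6 arrays each), a difference of 0.60 (limma adjusted p = 0.181) that was -0.069 without the narrow-spread arrays. Fabp5, a fatty acid carrier of keratinocytes that also binds retinoic acid, was at 0.076 (12.34 in CD34+ and 12.26 in CD34- arrays, adjusted p = 0.635). Its dimmer probe set was lower (-0.89, adjusted p = 0.0257) and did not pass without the narrow-spread arrays (adjusted p = 0.274).

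Of 15 other receptors, partners and coregulators 0 rose and 1 fell, with a median of -0.16. Nrip1, a corepressor that binds liganded nuclear receptors, fell by 0.62 (limma adjusted p = 0.00979), although without the narrow-spread arrays it was at -0.35 (adjusted p = 0.0790). Of its 6 probe sets 2 others were lower. They were 1449089_at (-0.81, adjusted p = 0.00584; -0.55 without those arrays, adjusted p = 0.0323) and 1418469_at (-1.25, adjusted p = 0.00698; -1.17 without those arrays, adjusted p = 0.0610). The rest did not pass, at 0.019 to 0.48. The other RXRs did not pass, with Rxrb at -0.21 (adjusted p = 0.386) and Rxrg at 0.12 (adjusted p = 0.503). Of 9 genes known to respond to retinoic acid in other tissues 1 rose and 2 fell, with a median of 0.21. Btg2, an antiproliferative gene that p53 also induces, fell by 1.23 (adjusted p = 0.0267), Rarres1 fell by 0.64 (adjusted p = 0.0379) and Rarres2, which encodes the chemoattractant chemerin, rose by 0.41 (adjusted p = 0.0201). By their brightest probe sets these 3 did not pass without the narrow-spread arrays, at -1.11, -0.65 and 0.24 (adjusted p = 0.150, 0.127 and 0.171). The other probe set of Btg2 was lower by 1.82 (adjusted p = 0.00249), and its fractions did not overlap. It passed without those arrays (-1.58, adjusted p = 0.0413).

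**Figure D4:**
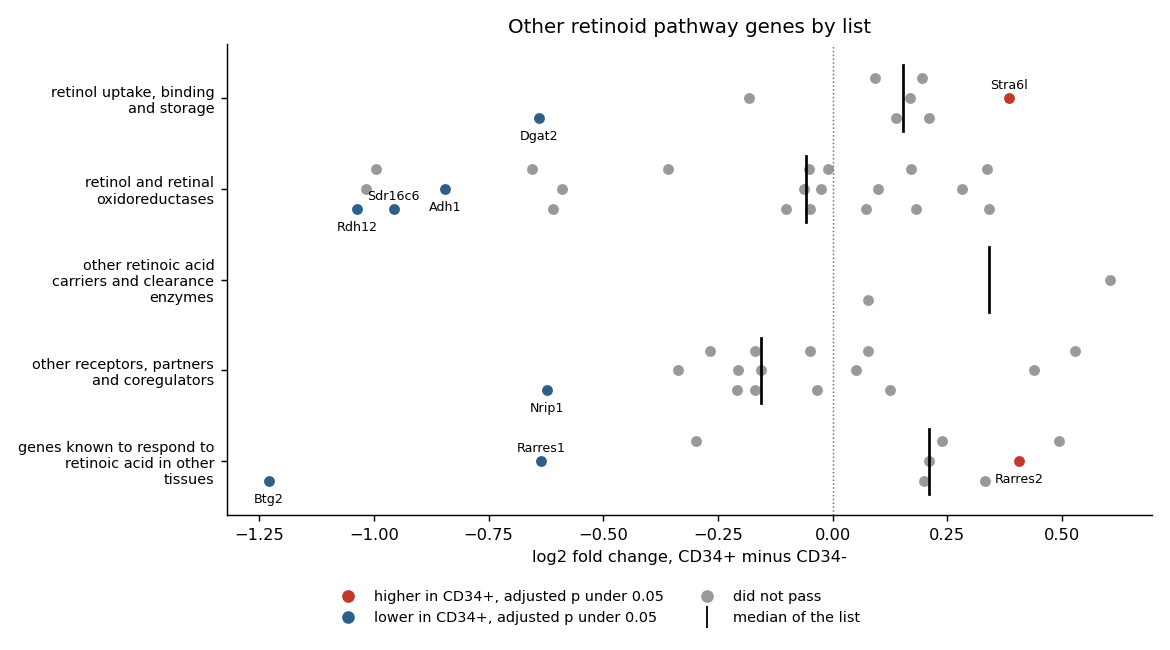
Log2 fold change (horizontal axis, CD34+ minus CD34-) of 56 other retinoid pathway genes, 1 point per gene by its brightest probe set, in 5 lists (rows) with the median of each list as a bar. The 9 named genes passed, 2 at right (Stra6l and Rarres2) and 7 at left, from Btg2 at -1.23 to Nrip1 at -0.62.

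The genes most like the members over the 12 arrays were found among the other 18192 by the root mean square difference between profiles centred on their own means. This describes likeness of pattern only, since the step between fractions sets most of it. Nearest to Cyp26b1 were Pogk (0.13 log2 units), Ndrg1 (0.13) and the Wnt receptor gene Fzd7 (0.18), with differences of 1.36, 1.29 and 1.49. Nearest to Rarg were Sbf1 (0.14), 3000002C10Rik (0.15) and Eps8l2 (0.16), with differences of -1.03, -0.91 and -0.75. The nearest to Crabp2 were further off, with Bcat2 at 0.25, Rps4l at 0.26 and Vps37b at 0.29.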

How the data were processed

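The data were log2 expression values of biotin-labelled total RNA on 12 Affymetrix arrays. The deposited log2 values were made by the authors with RMA, per the submitters' processing notes. The version, and whether all arrays were normalized together, are not given in the sources used here. RMA gives no detection call, and the number of arrays limits the precision. Of 45101 probe sets 64 controls were left out of the tests. Annotation tied 34945 to 1 gene and 932 to several, and 9160 are unnamed here.

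The test of each probe set between fractions was limma's (version 3.58.1, R 4.3.3; lmFit and eBayes, two-sided, no block), with Benjamini-Hochberg adjustment over 45037 probe sets, and was tested on simulated data. In the simulated data the arrays were independent, with no shared RNA and no narrow-spread arrays, so that test does not cover these features. Arrays entered as separate samples. Because 2 arrays share each RNA, the measured spread is partly technical. To the extent that these arrays are technical repeats, p-values come out too small and the intervals printed with the differences too narrow. Means of arrays 1-2, 3-4 and 5-6 assume a pairing that the labels do not state. The estimated correlation within these assumed pairs was -0.14, and each assumed CD34+ pair joins a narrow-spread array to another array. Passing with these means or with a random block of the pairs therefore does not tell how shared RNA affects the p-values.

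Every member probe set is named. Of each pathway list up to 6 genes past the threshold are named by size of change, with relatives of the members. Members, lists and the exclusion of CD34+ arrays 1, 3 and 5 were chosen with earlier results of these data known. RefSeq promoters came from GRCm38.p6.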

Additional observations from a re-analysis of the deposited data

Results flagged for a closer look

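In Rarg probe set 1419416_a_at, CD34- array 6 read 5.40 on the log2 scale, far from the nearest of the other arrays of its fraction at 4.85. The gap was 0.697 of the range of the 6 arrays, above Dixon's 95% critical value for 6 samples. Without that array the difference was -0.29 (limma adjusted p = 0.144). It was the only one of 24 groups of 6 arrays (12 probe sets in 2 fractions) to stand out in this way, and chance flags about 1 in 20 such groups.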

How the results depend on the processing

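Cyp26b1 and Rarg 1419415_a_at kept their direction and passed under all 21 alternatives, at 1.24 to 1.85 and -1.08 to -0.69. With the array number as a replicate block the adjusted p of Cyp26b1 was 0.00131, that of Rarg 0.000349, that of Crabp2 0.00722 and that of Rxra 0.0246, and no member's call changed. Whether the numbers pair the samples is not settled. Deviations of same-numbered arrays correlated at -0.24 and -0.18 for 2 numbers and at 0.21 to 0.49 for the other 4, and 3 of 6 arrays matched best with their own number, a hint from the data and not from the design. Member probe sets past the threshold were 1 higher and 3 lower as deposited. Higher ones were 2 with an intensity trend, with a random block of arrays 1-2, 3-4 and 5-6 (estimated correlation -0.14) and without CD34+ arrays 1, 3 and 5 together, the added one being Crabp1; lower ones were 5 after median centring and with the random block, and 1 without the 3 arrays. On leaving out single arrays they were 1 to 2 higher and 3 to 4 lower. Other pathway genes numbered 2 higher and 7 lower. They were 1 higher after median centring, 1 higher and 10 lower with the replicate block, 5 higher and 3 lower after quantile normalization, 4 higher with the random block, 2 lower without the 3 arrays, and 1 to 3 higher and 5 to 10 lower without single arrays; with every probe set of each gene (113) they were 6 higher and 19 lower.

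Over all probe sets 9704 passed, 3439 higher and 6265 lower (64.6% lower). With 1 probe set per gene, where 18193 are tested, 4750 passed (1454 higher, 3296 lower). Median centring, which moved the median of all probe sets by -0.10, gave 2001 higher and 7442 lower (78.8% lower), and leaving out the 3 arrays gave 3316 higher and 3702 lower (52.8% lower). Single arrays left out gave 7439 to 12318 (2337 to 4753 higher, 5045 to 7565 lower), the fewest without CD34- array 5 and the most without CD34+ array 4. Signs turned only for probe sets that had not passed. These were Dhrs3 (0.21 after quantile normalization, 0.16 without the 3 arrays), Rarb (-0.027 without the 3 arrays) and Rxra 1430497_at (-0.064 after median centring, -0.082 after quantile normalization, -0.075 without the 3 arrays, -0.043 to 0.091 without single arrays). The causes were not tested. Signal near the Trpn controls limits Crabp1, Rarb and Rxra 1430497_at.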

Other observations

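Genes of the pathway lists with several probe sets did not always show the same change. Over 113 probe sets of the 56 genes, 4 were higher and 12 lower beside the brightest one of each gene, and 0 of the genes had calls in both directions. The genes below were chosen after their values were seen. Meis1, a homeobox gene known to respond to retinoic acid in limb and nervous tissue, did not pass by its brightest probe set (0.20, limma adjusted p = 0.406), but passed without CD34+ arrays 1, 3 and 5 (0.53, adjusted p = 0.0249). Its probe set 1443260_at read 5.81 to 6.91 in CD34+ arrays, against 4.23 to 5.36 in CD34- arrays, a difference of 1.46 (adjusted p = 0.000325) that was 1.59 without those arrays (adjusted p = 0.00229). Its relative Meis2 did not pass by its brightest probe set either (-0.30, adjusted p = 0.630), but did without those arrays (-1.29, adjusted p = 0.00602). The Meis2 probe set 1417129_a_at read 3.84 to 4.91 in CD34+ arrays, against 5.40 to 5.85 in CD34- arrays (-1.07, adjusted p = 0.000427). Meis2 probe sets 1440091_at (-0.058, adjusted p = 0.788) and 1447861_x_at (-0.079, adjusted p = 0.891) did not pass. Without those arrays 1447861_x_at stood at -0.89 (adjusted p = 0.00657). The coactivator Ncoa3 was at 0.077 (adjusted p = 0.776) by its brightest probe set, and 1422737_at read 4.67 to 5.35 in CD34+ arrays, against 5.80 to 6.00 in CD34- arrays (-0.82, adjusted p = 0.000248). What sets the probe sets of a gene apart was not tested.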
